A study of Homo sapiens with 32 samples.

Results

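NAT10-WT add-back cells were compared with parental Wildtype cells in 8 of the 32 libraries of an ac4C-sequencing experiment in Hep3B, a human hepatocellular carcinoma line. The libraries were chosen by their sample titles: 2 NAT10-WT and 2 Wildtype replicates, each as a NaCNBH3-treated and a mock-treated fraction of the same ligated RNA. In NAT10-WT cells the endogenous NAT10 gene carried a C-terminal FKBP12 F36V degron, and human NAT10 was expressed from a lentivirus under the EF1A promoter, after selection in 5 µg/ml blasticidin for 5 days; the methods describe independent transductions as replicates. Wildtype cells were the parental line, with untagged NAT10 and no transduction. Both genotypes, like all other samples of the series, had received 100 nM dTAGV1, which degrades the tagged protein only, for 24 h. NAT10-WT cells therefore differ from Wildtype cells in the tag, the G418 and hygromycin selection of the knock-in, the transduction, blasticidin and the source of NAT10, and these cannot be told apart in this comparison. A further genotype, NAT10(-), carried the same degron with a control plasmid in place of NAT10. Its 4 libraries are given beside the comparison as values only, and they share the Wildtype libraries with it wherever they are set against Wildtype.

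NAT10 is the only known human cytidine acetyltransferase of RNA. It forms N4-acetylcytidine (ac4C), mostly at the middle base of CCG, and reaches its known targets with the help of box C/D snoRNAs (18S rRNA) or the adaptor THUMPD1 (tRNA-Ser and tRNA-Leu, at C12 in the D arm). Sodium cyanoborohydride (NaCNBH3) reduces ac4C, and the reverse transcriptase then reads it partly as T, so that an acetylated cytidine appears as C>T reads in the NaCNBH3 fraction and not in the mock fraction. A C>T level seen in both fractions alike does not depend on this reduction.

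The labels were first checked against NAT10 itself (chr11:34105617-34147670, GRCh38). In NAT10-WT cells, 1079 and 649 of the 3075 coding positions were covered by at least 30 reads in the NaCNBH3 fraction, and 907 and 518 in the mock fraction, against 0 in all 4 Wildtype libraries and 0 in all 4 NAT10(-) libraries. Of the 898 UTR positions, 0 to 3 reached 30 reads in any of these libraries. The reads in NAT10-WT thus lay over the coding sequence. Of 18 liver markers, 10 were deep enough to measure per gene, and of 12 markers of other cell types 0 were. The 8 libraries held 463897 to 731291 positions with at least 30 reads and about 1333.9 to 1453.1 base calls in units of 1e6. Ribosomal RNA was only partly depleted, and the deposited depth per position ended near 20000 reads. NAT10-WT replicate 2 stood apart in composition: mRNA took 4.18% and 3.86% of its base calls in the NaCNBH3 and mock fractions, against 5.70 to 6.43% in the other 6 libraries. All limma p-values below rest on 2 samples per genotype. For each feature limma draws the spread between samples towards that of the other features tested with it.

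Below are 21-base windows (RNA strand, 5′ to 3′, GRCh38) around the cytidines that carry the comparison. They are shown so that the sequence around CCGT sites can be read beside that of sites outside CCGT that changed in both fractions. Of the CCGT sites, 18S C1337 and C1842 were lower in NAT10-WT after NaCNBH3. At 18S C1317, 18S C1842 and SNORA79B the genotypes were also apart in mock. Capitals mark the CCG whose middle base was measured or, outside CCG, the measured base. The first windows are CCGT sites: 18S C1317, C1337 and C1842 in mature rRNA, C2278 of the 45S precursor in the 5′ external transcribed spacer (ETS), 5 snoRNAs and the coding sequence of RPS16.
18S C1317, chr21:8210937-8210957, plus strand: ttctcgattCCGtgggtggtg
18S C1337, chr21:8210957-8210977, plus strand: ggtgcatggCCGttcttagtt
18S C1842, chr21:8438707-8438727, plus strand: acaaggtttCCGtaggtgaac
5′ ETS C2278, chr21:8435489-8435509, plus strand: gcttcacgtCCGttggtggcc
SNORD46 C42, chr1:44776521-44776541, plus strand: tggttgtggCCGtcttggtca
SNORD126, chr14:20326486-20326506, minus strand: atgttaagtCCGtgtttcagc
SNORD18B, chr15:66502051-66502071, minus strand: ttaattggtCCGtgtttctga
SNORD18C, chr15:66501280-66501300, minus strand: acttaaggtCCGtgtttctga
SNORA79B, chr14:20323205-20323225, minus strand: gctggctgtCCGttagtgcct
RPS16, chr19:39433691-39433711, minus strand: catccgtgtCCGtgtaaaggg
The second set holds positions with a C>T difference in both fractions, none of them in CCGT: the mitochondrial coding sequence of MT-CO2, 2 tRNA genes, the second internal transcribed spacer (ITS2) of the rRNA precursor and 28S rRNA.
MT-CO2 C270, chrMT:7845-7865, plus strand: cagacgaggtCaacgatccct
TRA-TGC4-1 C49, chr12:124940004-124940024, plus strand: tatgaggccCCGggttcaatc
TRN-GTT2-7 C65, chr1:145287820-145287840, plus strand: ttcgagcccaCccagggacgc
ITS2 C7388, chr21:8213365-8213385, plus strand: cgcccgtcctCctcgccctcc
28S C4788, chr21:8445923-8445943, plus strand: tccccgccggCgggccgcccc
The ribosomal genes stand in several identical copies in the genome, and 1 copy of each is named.

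The first question was whether re-expressed NAT10 brings C>T reads above the Wildtype level at cytidines covered by at least 1000 reads in all 8 libraries. There were 10043 such cytidines after copies with identical surroundings were merged, and 7507 had enough T reads to be tested in the NaCNBH3 fraction. By limma with Benjamini-Hochberg adjustment over all of them, 10 differed at an adjusted p under 0.05 (0.133% of those tested), 9 higher (0.12%) and 1 lower (0.0133%) in NAT10-WT. Of the 9 higher sites, 3 lay in CCGT, namely 18S C1317, 5′ ETS C2278 and SNORD46 C42. The other 6 were not in CCGT, and 7 of the 9 were also higher in both NAT10-WT libraries of the mock fraction.

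18S C1317, 20 bases upstream of the long known site C1337, had 1.62% and 1.70% C>T reads in the NaCNBH3 libraries of NAT10-WT, against 0.306% and 0.412% in Wildtype. In mock libraries it had 0.105% and 0.0904% in NAT10-WT and 0.0451% and 0.0452% in Wildtype, and in NaCNBH3 libraries of NAT10(-) 0.130% and 0.120%. Both NAT10-WT libraries stood above both Wildtype libraries, with about 19900 reads each (log2 odds ratio 2.24 ± 0.33 (SE, n = 2 each), limma adjusted p = 0.00178). With the replicate as a block the site no longer passed. The median C>T level of all deep cytidines differed between replicates (0.0844% and 0.119% in NAT10-WT, 0.0778% and 0.126% in Wildtype after NaCNBH3), and when each library was centred on its own median 0 cytidines were called by limma, with 316 at an unadjusted p under 0.05.

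5′ ETS C2278, in the spacer that is cut away as 18S rRNA matures, had 2.23% and 3.00% C>T reads in NAT10-WT against 0.288% and 0.459% in Wildtype after NaCNBH3. The mock values were 0.0881% and 0.0336% in NAT10-WT and 0.0485% and 0.0822% in Wildtype, which overlap. NAT10(-) had 0.0508% and 0.167% after NaCNBH3. The difference between NAT10-WT and Wildtype (log2 odds ratio 2.83 ± 0.33, limma adjusted p = 1.10e-04) also passed with the replicate block. It was the largest of the 3 CCGT sites called.

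SNORD46 C42 lies in a box C/D snoRNA. It had 1.56% and 1.37% C>T reads in NAT10-WT and 0.453% and 0.189% in Wildtype after NaCNBH3 (log2 odds ratio 2.26 ± 0.39, limma adjusted p = 0.00869). In mock libraries all 4 values lay between 0.0324% and 0.0387%, and NAT10(-) had 0.108% and 0.173% after NaCNBH3. The call was lost in 7 of 13 alternatives, among them the replicate block and the fit without Wildtype replicate 2.

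The 2 highly acetylated sites of 18S rRNA did not follow this direction. C1337, in the head of the small subunit, had 66.8% and 73.4% C>T reads in NAT10-WT, against 76.9% and 92.5% in Wildtype. C1842, near the 3′ end of 18S rRNA, had 54.4% and 68.7% in NAT10-WT against 72.6% and 90.0% in Wildtype. At both sites each NAT10-WT library was below each Wildtype library, but the differences did not pass in limma (log2 odds ratios -1.44 ± 0.40 and -1.59 ± 0.39, adjusted p = 0.389 and 0.276). Both were called lower when NAT10-WT replicate 1, NAT10-WT replicate 2 or Wildtype replicate 1 was left out. Fisher's exact test on the reads of each replicate pair, which compares those libraries and not the genotypes, found both sites lower in NAT10-WT in both replicates. NAT10(-) had 12.7% and 12.8% at C1337 and 3.22% and 5.65% at C1842. In mock libraries NAT10-WT had 1.5% and 0.874% at C1337 and Wildtype 1.44% and 1.37%, which overlap; at C1842 NAT10-WT had 0.879% and 0.542% and Wildtype 1.24% and 1.09%, so there NAT10-WT was below Wildtype in mock as well.

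**Figure D1:**
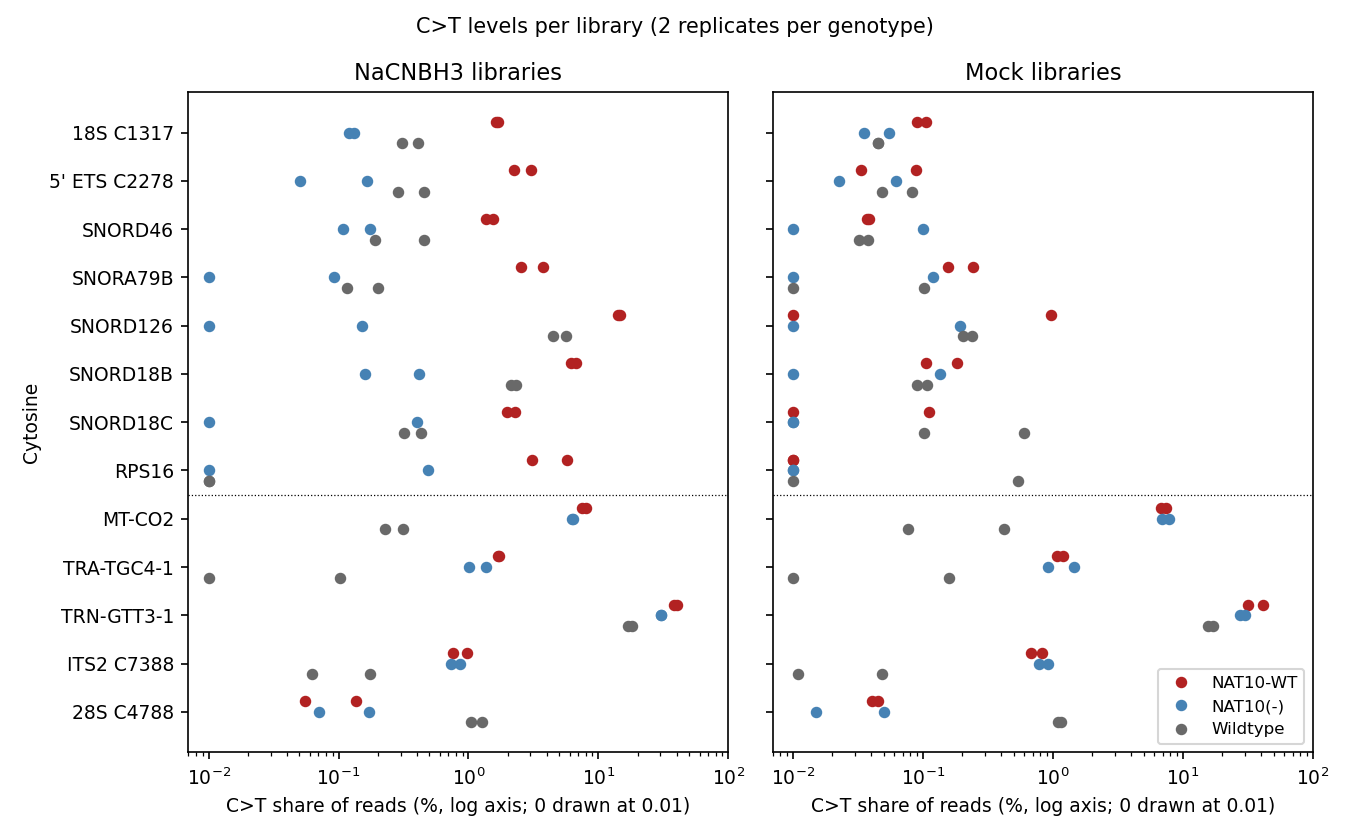
C>T share of reads (%, log axis, values of 0 drawn at the left edge) at 13 cytidines in each NaCNBH3 (left) and mock (right) library of NAT10-WT (red), NAT10(-) (blue) and Wildtype (grey); sites above the dotted line lie in CCGT, those under it do not. The 8 CCGT sites plotted leave out, among others, 18S C1337 and C1842 and CCGT sites that overlapped or differed little. Of those plotted, SNORD18C, SNORA79B and RPS16 were named after their values were seen. That NAT10-WT stood above Wildtype at all 8 in the NaCNBH3 panel therefore follows in part from the choice (18S C1317 at 1.62% and 1.70% against 0.306% and 0.412%). At the sites outside CCGT the genotypes were also apart in the mock panel, and so they were at 18S C1317 and SNORA79B.

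The CCGT context, which was not a planned grouping, was then examined across all deep cytidines. Of 127 CCGT cytidines tested after NaCNBH3, 31 (24.4%) had both NAT10-WT libraries above both Wildtype libraries, against 839 of all 7507 (11.2%). Their median log2 odds ratio was 0.25, against 0.00 over all deep cytidines. In the mock fraction 13 of 88 CCGT cytidines (14.8%) stood above, against 928 of 5013 (18.5%). CCGT had the highest share of the 62 four-base contexts that held enough cytidines, followed by TCTG (22.1% of 136), while CCGA had 12.5%, CCGC 8.37% and CCGG 10.2%. The share of CCGT cytidines with both NAT10-WT libraries below was 11%, near the 11.9% over all. The 31 sites include the called gains at 18S C1317, 5′ ETS C2278 and SNORD46 C42. The CCGT share and its rank therefore restate those calls in part. The 31 sites were spread over RNA classes: 9 of 41 CCGT cytidines in pre-rRNA spacers, 6 of 31 in 28S rRNA, 1 of 10 in 18S rRNA, 3 of 6 in mitochondrial rRNA, 3 of 8 in snRNAs, 2 of 8 in box C/D snoRNAs and 2 of 7 in tRNAs. Most of these gains were small. An example is ITS2 C7862 (chr21:8213849), with 0.259% and 0.345% in NAT10-WT and 0.0771% and 0.132% in Wildtype. Its mock values were 0.0216% and 0.0367% in NAT10-WT and 0.0270% and 0.0106% in Wildtype; it did not pass in limma (adjusted p = 0.978), though it passed Fisher's exact test in both replicate pairs.

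CCGT cytidines with over 1% of C>T reads were then taken at any depth from 30 reads in the 4 NaCNBH3 libraries. Of these 16, 4 are the rRNA sites already described (18S C1317, C1337 and C1842 and 5′ ETS C2278). A site could pass the 1% minimum through NAT10-WT alone, as RPS16 and SOD1 did with 0% in Wildtype. The number and direction of sites are therefore not counted, and sites are given one by one. Some overlapped between genotypes or differed little. SNORD116-19 had 8.92% and 8.51% in NAT10-WT against 8.07% and 8.33% in Wildtype. TRV-AAC1-5 overlapped, with 1.46% and 2.22% against 1.06% and 2.32%. A position outside the annotated genes (chr1:161399689) also overlapped, with 61.8% and 62.4% against 59.5% and 68.3%. By contrast, a pre-rRNA spacer site (chr21:8219011) was higher in both NAT10-WT libraries, with 1.55% and 1.28% against 0% and 0.905%. Its log2 odds ratio was 2.19 ± 1.21 (limma adjusted p = 0.718). By limma 0 of the 16 were called (adjusted p from 0.0833 upward) in a fit over all mismatch positions. In it 18S C1317 and 5′ ETS C2278, called among deep cytidines on the same reads, had limma adjusted p of 0.270 and 0.185. Many of the sites other than the rRNA sites were in snoRNAs, which guide 2′-O-methylation (box C/D) or pseudouridylation (box H/ACA) of other RNAs.

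SNORD126, a box C/D snoRNA in an intron of CCNB1IP1, had 14.2% and 14.7% C>T reads in NAT10-WT against 4.44% and 5.6% in Wildtype after NaCNBH3 (log2 odds ratio 1.66 ± 0.27, limma adjusted p = 0.144). In mock libraries it had 0% and 0.962% in NAT10-WT and 0.239% and 0.204% in Wildtype, and in NAT10(-) 0% and 0.152% after NaCNBH3. SNORD87 C34 (chr8:66922522) had 11.5% and 11.1% in NAT10-WT and 6.40% and 5.93% in Wildtype (adjusted p = 0.323), with 0.144% and 0.0875% in NAT10(-). Each of these NAT10-WT values lay above each Wildtype value.

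SNORD18B and SNORD18C are neighbouring copies in introns of RPL4, and their printed windows share the stretch around CCGT. SNORD18B had 6.13% and 6.68% in NAT10-WT against 2.34% and 2.13% in Wildtype (log2 odds ratio 1.56 ± 0.30), and NAT10(-) had 0.418% and 0.159%. SNORD18C, named after its values were seen, had 2.29% and 1.98% in NAT10-WT against 0.322% and 0.432% in Wildtype (2.34 ± 0.44); limma gave both an adjusted p of 0.217.

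SNORA79B, RPS16, SOD1 and RPL13 were also named after their values were seen. SNORA79B, a box H/ACA snoRNA from the same host gene as SNORD126, had 3.72% and 2.56% in NAT10-WT against 0.116% and 0.202% in Wildtype after NaCNBH3 (log2 odds ratio 3.97 ± 0.52, limma adjusted p = 0.0833). Its mock values were 0.157% and 0.244% in NAT10-WT and 0% and 0.102% in Wildtype. RPS16 encodes a protein of the small ribosomal subunit, and the site lies in its coding sequence. It had 5.74% and 3.09% in NAT10-WT (244 and 162 reads) against 0% in both Wildtype libraries, where 151 and 195 reads allow up to 1.99% and 1.54%. SOD1, encoding superoxide dismutase, had 5.88% and 6.67% in NAT10-WT at a 5′ UTR site (chr21:31659725) with 51 and 30 reads. Wildtype had 0% with 57 and 32 reads, which allow up to 5.26% and 9.38%, so the SOD1 difference is at the edge of what this depth can show. RPL13 (chr16:89562953, coding sequence) had 3.94% and 6.98% in NAT10-WT and 0% and 0.990% in Wildtype. Such limits and intervals cover counting error only.

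Pooled over genes, the known acetylation targets among tRNAs were at the Wildtype level or scattered around it. C12 of tRNA-Leu, pooled over the reads of 20 genes with distinct surroundings, had 1.80% and 4.01% in NAT10-WT and 1.66% and 5.57% in Wildtype after NaCNBH3, and 0 of 20 genes had both NAT10-WT libraries above, beside 17.1% of all mismatch positions. C12 of tRNA-Ser had 2.75% and 4.66% in NAT10-WT and 1.92% and 4.30% in Wildtype, and 4 of 20 genes stood above. NAT10(-) had 0.764% and 1.23% at tRNA-Leu and 0.420% and 0.445% at tRNA-Ser. Replicates of 1 genotype differed by more than the genotypes did at both. Among the 4 tRNA-Ser genes, TRS-AGA4-1 had 26.4% and 41.0% in NAT10-WT against 13.8% and 20.1% in Wildtype. TRS-CGA3-1 had 6.58% and 10.9% against 1.41% and 3.63%. Neither was called by limma (limma adjusted p = 0.474 and 0.430), but Fisher's exact test found both higher in both replicate pairs. At C6 of TRV-CAC4-1, a tRNA-Val gene on chromosome 1, NAT10-WT had 0.273% and 0.230% and Wildtype 0.0190% and 0.0613% (limma adjusted p = 0.301), whereas the other TRV-CAC copies had 0 to 0.185% in NAT10-WT and 0 to 0.383% in Wildtype.

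The 6 remaining called gains and the called loss were present without NaCNBH3 as well. MT-CO2 encodes subunit II of cytochrome c oxidase in the mitochondrial genome. Its C270 (position 7855) had 8.04% and 7.42% C>T reads in NAT10-WT against 0.226% and 0.316% in Wildtype after NaCNBH3, and in mock 6.77% and 7.39% against 0.421% and 0.0773%. NAT10(-) had 6.41% and 6.25% after NaCNBH3. The log2 odds ratio was 4.87 ± 0.29 after NaCNBH3 (limma adjusted p = 2.35e-09) and 5.21 in mock (adjusted p = 0.0642), and the call after NaCNBH3 held with the replicate block.

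TRA-TGC4-1 C49, in a tRNA-Ala gene on chromosome 12, was higher in NAT10-WT (limma adjusted p after NaCNBH3 3.22e-05). It had 1.69% and 1.72% in NAT10-WT and 0% and 0.103% in Wildtype after NaCNBH3. In mock it had 1.21% and 1.08% against 0.157% and 0%. NAT10(-) had 1.02% and 1.37% after NaCNBH3 and 0.924% and 1.45% in mock. C65 of 2 tRNA-Asn genes on chromosome 1 was also higher: TRN-GTT3-1 had 37.9% and 40.5% in NAT10-WT against 16.8% and 18.2% in Wildtype (adjusted p = 4.48e-04), and TRN-GTT2-7 had 12.1% and 12.3% against 3.66% and 4.01% (adjusted p = 2.22e-04). In NAT10(-) TRN-GTT3-1 had 30.2% and 30.2% and TRN-GTT2-7 had 7.93% and 8.47%, between NAT10-WT and Wildtype. The tRNA-Asn genes are near-identical, so reads could be split among copies in the mapping.

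In the rRNA precursor, ITS2 C7388 had 0.761% and 0.980% in NAT10-WT against 0.0624% and 0.175% in Wildtype, with mock values of 0.676% and 0.828% against 0.0482% and 0.0110%. C162 of the 5′ ETS had 0.790% and 0.578% against 0.0932% and 0% after NaCNBH3, where NAT10(-) had 0.465% and 0.389%. 28S C4788, the 1 called loss, had 0.0553% and 0.137% in NAT10-WT and 1.05% and 1.26% in Wildtype after NaCNBH3 (log2 odds ratio -3.70 ± 0.47, limma adjusted p = 2.22e-04). In mock it had 0.0402% and 0.0454% in NAT10-WT and 1.15% and 1.09% in Wildtype, and in NAT10(-) 0.0704% and 0.172% after NaCNBH3. At ITS2 C7388 NAT10(-) had 0.867% and 0.729% after NaCNBH3. The rRNA genes stand in many copies, and which copies carry the difference was not tested.

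In the mock fraction 3 of 5013 deep cytidines were called (0.0598%), 1 higher (0.0199%) and 2 lower (0.0399%). One of the lower sites is 28S C4788, and the other is 5′ ETS C178, with 0% and 0% in NAT10-WT against 0.461% and 0.825% in Wildtype (limma adjusted p = 0.0229). The higher site is C52 of RNY1, a Y RNA bound by the Ro protein (chr7:148987197, minus strand), with 2.52% and 3.03% in NAT10-WT against 0.121% and 0.0986% in Wildtype. None of the 3 was called when any 1 of the 4 mock libraries was left out.

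By Fisher's exact test in both replicate pairs, which counts reads and not the spread between libraries, 23 deep cytidines differed after NaCNBH3 (0.306%; higher 0.226%) and 27 in mock (0.539%; higher 0.419%). Of these, 16 differed in both fractions in the same direction. A further 7 differed after NaCNBH3 only, and 6 of the 7 lie in CCGT: 18S C1317, 5′ ETS C2278, SNORD46 C42 and ITS2 C7862 were higher in NAT10-WT, and 18S C1337 and C1842 lower. Box C/D snoRNA SNORD48 C35 is among those shared, with 35.6% and 36.8% in NAT10-WT against 48.3% and 49.9% in Wildtype after NaCNBH3 and 34% and 33.1% against 49.3% and 49% in mock. In RMRP, the RNA of the nuclease that processes ITS1, C177 had 8.0% and 7.43% in NAT10-WT against 4.32% and 4.27% in Wildtype.

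Mismatches of any kind were then compared at positions with at least 30 reads in the 4 libraries of a fraction. After NaCNBH3, 28 of 1948 positions were called by limma (1.44%), 13 higher (0.667%) and 15 lower (0.77%) in NAT10-WT, and in mock 26 of 1807 (1.44%; 0.553% higher and 0.885% lower), with 23 called in both fractions. Of the 28, 24 lay on chromosomes 2, 11 and 12, with 13 on chromosome 12, and of the 23 shared calls 21 did. These chromosomes were grouped after the values were seen. Both fractions come from the same ligated RNA, so a shared call adds no replicate. The calls had a common form: at 23 of the 28, the mismatch share in NAT10-WT was under 5% or over 94%, while it lay between 20% and 75% in Wildtype.

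GAPDH, the glycolytic dehydrogenase (chr12:6534825, 5′ UTR, C>G), had 0% and 0% in NAT10-WT and 26.2% and 26.4% in Wildtype after NaCNBH3, and 0% and 0% against 26.5% and 26.7% in mock. KRT8, a keratin of simple epithelia (chr12:52904985, T>C), had 0% and 0% in NAT10-WT against 25.4% and 28.6% in Wildtype. SNORA53, a box H/ACA snoRNA in SLC25A3, was at 0% and 0% against 36.9% and 33.8%. TUBA1B, an alpha-tubulin (chr12:49128822, G>A), had 100% and 100% in NAT10-WT against 71.6% and 72.1% in Wildtype. On chromosome 12 the Wildtype shares thus lay on either side of the middle, and the NAT10-WT shares at the ends.

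On chromosome 11, RPS13, a ribosomal protein of the small subunit (chr11:17077666, C>T), had 100% and 100% in NAT10-WT and 47.1% and 45.8% in Wildtype. SNORA3B, a box H/ACA snoRNA in an intron of RPL27A (chr11:8685464, A>G), had 0% and 0% in NAT10-WT against 34.2% and 33.6% in Wildtype, and RPLP2 and SNORA54 were also at 0% and 0% in NAT10-WT against 37.3% and 38.5% and 36.0% and 36.4% in Wildtype. On chromosome 2, a G>A position outside the annotated genes (chr2:156400849) had 98.2% and 98.2% in NAT10-WT against 62.4% and 61.2% in Wildtype. SPTBN1, encoding a spectrin (chr2:54631302, C>T), had 0% and 0% in NAT10-WT against 34.3% and 36.2% in Wildtype in the mock fraction. The NAT10(-) libraries were nearer to NAT10-WT than to Wildtype at 28 of the 28 positions called after NaCNBH3 and at 26 of the 26 called in mock.

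A few calls ran the other way. HNRNPA1, encoding a splicing regulator (chr12:54282213, G>C), had 30.2% and 27.7% in NAT10-WT and 0% and 0% in Wildtype, where 65 and 88 reads allow up to 4.62% and 3.41%. TRY-GTA2-1, a tRNA-Tyr gene (chr2:27050805, G>C), had 21.1% and 15.2% in NAT10-WT and 0% and 0% in Wildtype in the mock fraction. Positions were also counted without the test. Of 36 positions on chromosomes 2, 11 and 12 that lay between 15% and 85% in Wildtype, 23 were under 5% or over 94% in NAT10-WT (6 of 11 on chromosome 2, 4 of 8 on chromosome 11 and 13 of 17 on chromosome 12), against 1 of 133 on other chromosomes. With the replicate block limma called 29 positions after NaCNBH3 and 22 in mock. Without NAT10-WT replicate 1, Wildtype replicate 1 or Wildtype replicate 2 it called 0 in either fraction, while 129 to 227 positions kept an unadjusted p under 0.05.

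**Figure D2:**
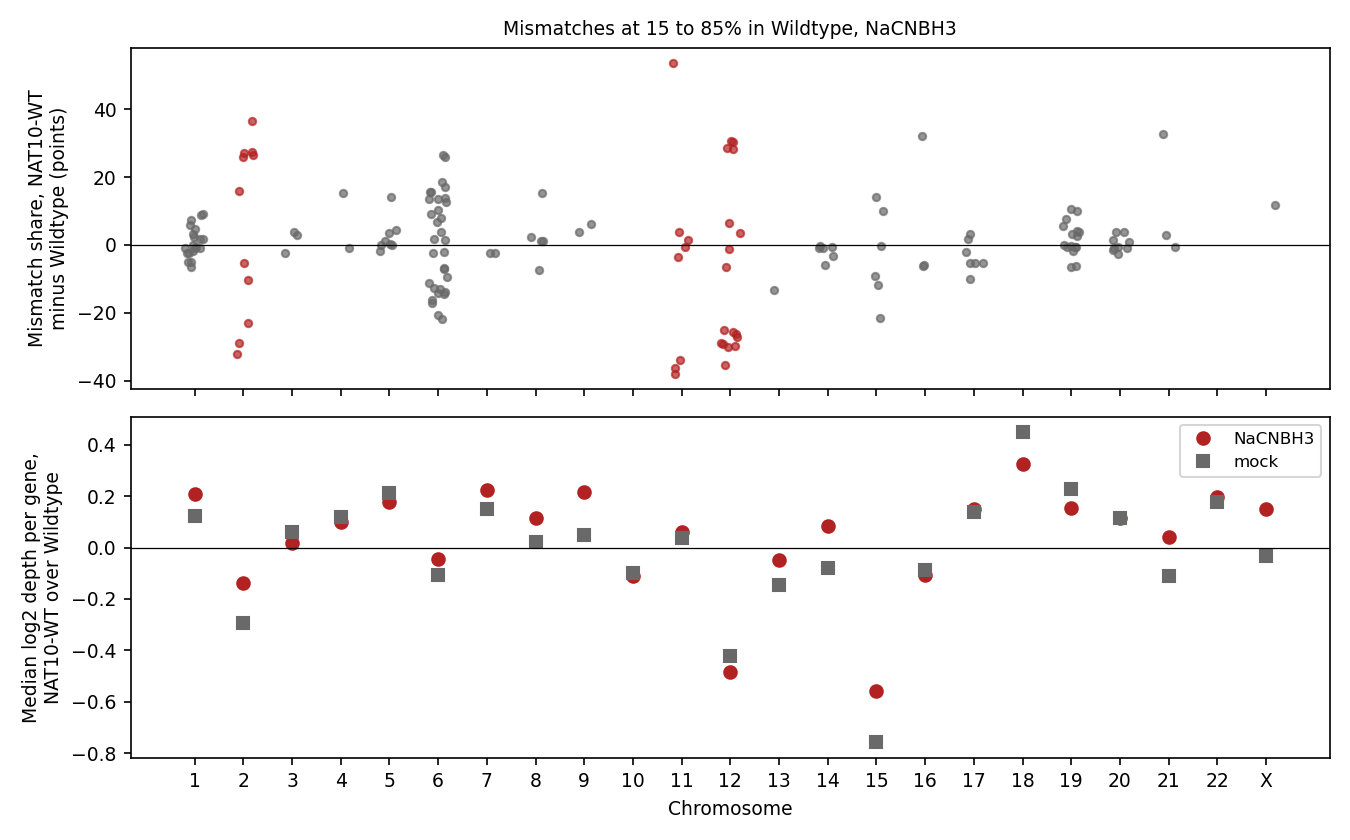
Top: difference in mismatch share (percentage points, NAT10-WT minus Wildtype, NaCNBH3 libraries) at each position that lay between 15% and 85% in Wildtype, by chromosome, with chromosomes 2, 11 and 12 in red. Bottom: median log2 depth per gene (NAT10-WT over Wildtype) by chromosome in the NaCNBH3 (circles) and mock (squares) fractions. On chromosomes 2, 11 and 12, 23 of 36 positions were under 5% or over 94% in NAT10-WT, against 1 of 133 on other chromosomes, though differences of like size occur elsewhere (APP on chromosome 21, 61.7% in NAT10-WT and 29.1% in Wildtype). The lowest median depth in either fraction is on chromosome 15 (-0.56 after NaCNBH3 and -0.76 in mock) and chromosome 12 (-0.48 and -0.42).

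Known sites of other modifications were compared next. At U1248 of 18S rRNA, the m1acp3Ψ site, NAT10-WT had 21.2% and 20.5% mismatches and Wildtype 24.0% and 19% after NaCNBH3, and these overlap. C34 of MT-TM, the formylcytidine of mitochondrial tRNA-Met, which NaCNBH3 also reduces, had 53.4% and 51.9% C>T in NAT10-WT and 51.5% and 50.8% in Wildtype, and in mock 0.33% and 0.241% in NAT10-WT and 0.246% and 0.208% in Wildtype. 28S A1322, an m1A site, had 94.1% and 92.8% in NAT10-WT and 92.6% and 92.1% in Wildtype, and in mock 93.5% and 93.3% against 91.5% and 91.6%, higher by Fisher's exact test in both replicate pairs of both fractions. The m1A at A947 of MT-RNR2 had 82.1% and 80.0% in NAT10-WT against 79.1% and 78.7% in Wildtype, and in mock 81.5% and 80.7% against 77.7% and 78.1%, higher by Fisher's exact test in mock only. For MT-ND5 A1374, NAT10-WT had 6.08% and 2.58% and Wildtype 6.80% and 4.07%. None of these positions passed in limma.

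In the mock fraction cytosolic tRNAs had more mismatches in NAT10-WT at many positions: by Fisher's exact test in both replicate pairs 67 of 591 tested tRNA positions were higher and 19 lower, beside 9.91% of all mock mismatch positions called in either direction. At G26, the dimethylguanosine site, the share pooled over the reads of 62 genes was 43.6% and 44.9% in NAT10-WT against 32.3% and 40.1% in Wildtype; 16 of 57 tested genes were higher and 0 lower by the same test. At A58, the m1A of the T arm, the pooled mock share was 77.1% and 76.6% in NAT10-WT against 72.8% and 73.4% in Wildtype, and 16 of 121 genes were higher and 2 lower, a share like that over all tRNA positions. C32 had 8.87% and 9.74% against 5.66% and 6.75%, and 7 of 20 genes were higher. After NaCNBH3 the G26 shares of NAT10-WT (49.3% and 43.0%) and Wildtype (40.3% and 50.1%) overlapped, while A58 had 78.3% and 77.1% in NAT10-WT and 75.7% and 76.6% in Wildtype, with 5 of 121 genes higher and 1 lower by Fisher's exact test, beside 6.52% of all mismatch positions called. Position 37 had 7.31% and 6.50% in mock NAT10-WT and 7.37% and 6.49% in mock Wildtype. NAT10(-) had 49% and 45.2% at G26 in mock. By limma 0 of these tRNA positions were called.

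The relative depth of 1175 genes was compared as the level of each RNA in the library. In such bulk samples, fewer cells of a kind and less RNA per cell cannot be told apart. By limma 1 gene was called after NaCNBH3 (0.0851%) and 4 in mock (0.34%), all lower in NAT10-WT. BCYRN1, the short cytoplasmic RNA also known as BC200 (chromosome 2), had a relative depth of 65.1 and 58.7 reads per position in NAT10-WT against 288 and 301 in Wildtype after NaCNBH3 (log2 -2.25 ± 0.19, adjusted p = 0.0255). In mock it had 53.5 and 72.2 against 267 and 302 (-2.19, adjusted p = 0.0464). The other 3 mock calls were tRNA genes. TRL-CAA2-1 (tRNA-Leu) had 105 and 74.7 in NAT10-WT against 549 and 372 in Wildtype, TRK-TTT7-1 (tRNA-Lys) had 53.3 and 68.7 against 197 and 182, and TRI-TAT2-3 (tRNA-Ile) had 41.6 and 54.1 against 145 and 141; limma gave each an adjusted p of 0.0491. Without NAT10-WT replicate 2, Wildtype replicate 1 or Wildtype replicate 2, 0 genes were called after NaCNBH3 (95 to 122 at an unadjusted p under 0.05), and without either NAT10-WT replicate 0 in mock (169 and 205). Over the same positions in NAT10(-), BCYRN1 was at log2 -1.69 and -1.59 relative to Wildtype in the NaCNBH3 and mock fractions.

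With the replicate number as a block the counts were larger. Then 96 genes were called after NaCNBH3 (8.17%; 20 higher, 1.7%, and 76 lower, 6.47%) and 95 in mock (8.09%; 19 higher, 1.62%, and 76 lower, 6.47%), and 58 were called in both fractions, 51 of them lower in NAT10-WT. The 51, out of 1175 genes, included 19 of 269 cytosolic tRNAs, 9 of 435 mRNAs, 8 of 98 H/ACA snoRNAs and 5 of 154 C/D snoRNAs. The rest were 4 of 18 scaRNAs, 4 of 20 mitochondrial tRNAs, 1 of 10 other snoRNAs and BCYRN1. Both fractions come from the same ligated RNA, so a call in both adds no replicate. These blocked counts come from an alternative to the planned fit, which had no block and called 1 and 4 genes. They are used in the next paragraphs, where most genes named were called with the block only. Gene groups are described there beside a background. After NaCNBH3, 22.4% of all genes had both NAT10-WT libraries above both Wildtype libraries and 23.3% below (24.9% and 23.7% in mock). The median log2 ratio of all genes was 0.04 after NaCNBH3 and 0.05 in mock.

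**Figure D3:**
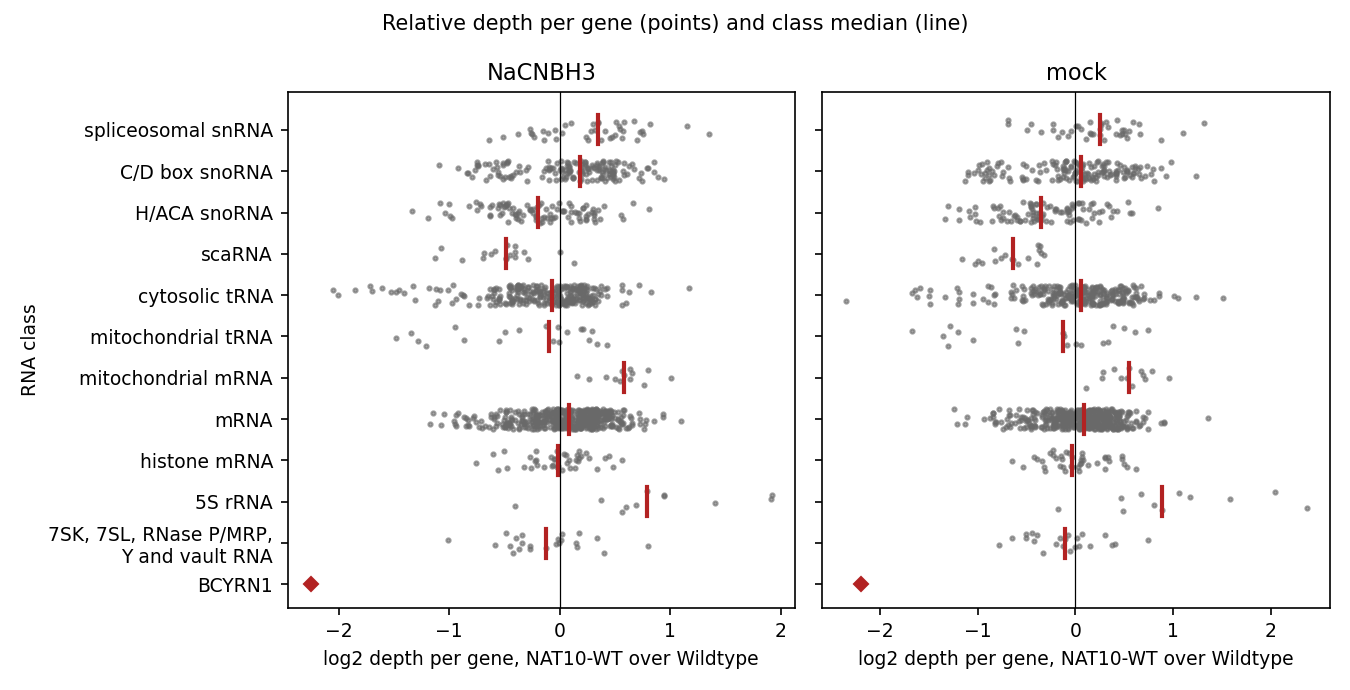
log2 relative depth per gene (NAT10-WT over Wildtype) by RNA class after NaCNBH3 and in mock; each point is 1 gene, the line is the median of its class, and the diamond is BCYRN1. scaRNAs lie to the left of 0 (median -0.48 and -0.64) and mitochondrial mRNAs to the right (0.59 and 0.55), while BCYRN1 is at -2.25 and -2.19.

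The mitochondrial genome gave the clearest split by strand. Mitochondrial tRNAs punctuate long transcripts of both strands and are cut out by RNase P and RNase Z. Of the 20 measured, the 8 on the minus strand of the reference (MT-TQ, MT-TA, MT-TN, MT-TC, MT-TY, MT-TS1, MT-TE and MT-TP) had a median log2 ratio of -1.08 after NaCNBH3 and -1.24 in mock, with 7 of 8 below in each fraction. By replicate number the medians were -1.09 and -1.20 after NaCNBH3. The 12 on the plus strand had medians of 0.13 and 0.17, with 0 and 1 of 12 below. The strands were separated after the values were seen.

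MT-TN, the tRNA-Asn, had a relative depth of 3335 and 2696 in NAT10-WT against 8096 and 8616 in Wildtype after NaCNBH3 (log2 -1.48 ± 0.27, limma adjusted p = 0.165, and 0.0164 with the replicate block). MT-TC, the tRNA-Cys, had 2182 and 2337 against 5478 and 6020 (-1.35; with the block limma's adjusted p = 0.0222). MT-TA, the tRNA-Ala, had 2978 and 2180 against 6449 and 5949 (-1.28), and MT-TY, the tRNA-Tyr, had 786 and 873 against 1780 and 2063 (-1.21). These 4 neighbours in the cluster around the origin of light-strand replication were all lower with the block in both fractions. MT-TS1 had 3947 and 5273 against 8208 and 9437, and MT-TQ 1631 and 1941 against 3080 and 3423. The change was smaller for MT-TE, at 4678 and 3911 in NAT10-WT against 5243 and 5792 in Wildtype, and MT-TP overlapped (1092 and 679 against 1044 and 1522).

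MT-ND6, the only mRNA of the minus strand, had 107 and 166 in NAT10-WT against 94.1 and 94.6 in Wildtype after NaCNBH3, so it was not lower. The 13 mitochondrial mRNAs had a median log2 ratio of 0.59 after NaCNBH3 and 0.55 in mock, with 10 and 7 above and 0 below. MT-CO1, for subunit I of cytochrome c oxidase, had 1360 and 1024 against 879 and 743, and MT-CYB, for cytochrome b, 593 and 356 against 335 and 279. In share of all base calls, mitochondrial mRNA took 4.08% and 2.03% in NAT10-WT against 2.22% and 2.20% in Wildtype after NaCNBH3, so the share was raised in NAT10-WT replicate 1 only. In NAT10(-) relative to Wildtype, over positions covered in all 12 libraries, the median was -0.92 and -1.07 for the minus-strand tRNAs and 0.57 and 0.57 for the mitochondrial mRNAs in the NaCNBH3 and mock fractions.

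**Figure D4:**
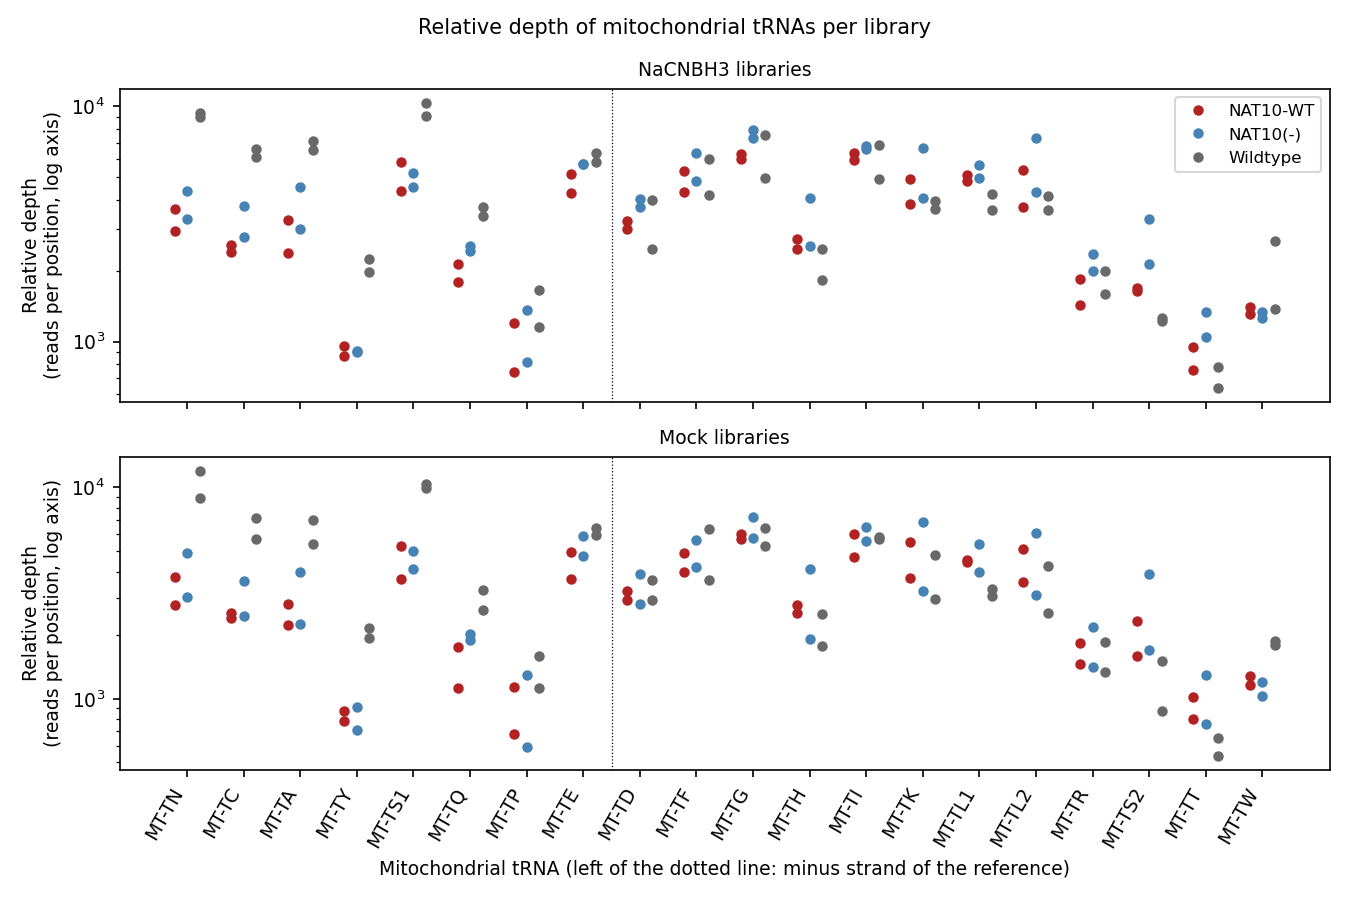
Relative depth (reads per position, log axis, on a scale set over the 12 libraries shown) of 20 mitochondrial tRNAs in the NaCNBH3 (top) and mock (bottom) libraries of NAT10-WT (red), NAT10(-) (blue) and Wildtype (grey); the 8 tRNAs left of the dotted line are on the minus strand of the reference. Left of the line NAT10-WT lies under Wildtype for 7 of 8 tRNAs in each fraction, and right of it for 0 and 1 of 12.

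Among nuclear small RNAs, the scaRNAs, which guide modification of snRNAs in Cajal bodies, were low as a class. Their median log2 ratio was -0.48 after NaCNBH3 and -0.64 in mock over 18 genes, with 14 and 15 below and 0 above, and 4 (SCARNA5, SCARNA6, SCARNA11 and SCARNA14) were lower with the block in both fractions. SCARNA5 had 87.1 and 81.9 in NAT10-WT against 174 and 181 in Wildtype after NaCNBH3, and SCARNA6 had 77.5 and 66.8 against 140 and 177. H/ACA snoRNAs had medians of -0.19 and -0.35 over 98 genes, with 33 and 44 below. SNORA23 had 264 and 193 against 586 and 451, and SNORA11 99 and 56.4 against 216 and 166. H/ACA snoRNAs also took a low share of NAT10-WT replicate 2 (2.74% and 2.33% of base calls, against 3.64 to 3.86% in the other libraries). The part of this replicate in these medians was not tested beyond the values by replicate number, -0.14 and -0.18 after NaCNBH3. In NAT10(-) relative to Wildtype, over positions covered in all 12 libraries, the scaRNA medians were -0.52 and -0.51 (NaCNBH3 and mock). The H/ACA snoRNA medians there were -0.25 and -0.27.

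Box C/D snoRNAs moved apart by locus. The 22 measured SNORD116 genes, from the imprinted Prader-Willi cluster on chromosome 15 and grouped after the values were seen, had medians of -0.59 after NaCNBH3 and -0.89 in mock, with 15 and 21 of 22 below and 0 above. SNORD116-24 had 496 and 758 in NAT10-WT against 954 and 1186 in Wildtype after NaCNBH3, and 453 and 583 against 1097 and 1108 in mock. Each SNORD116 copy was at a log2 ratio between -0.92 and -0.42 after NaCNBH3; the copies are near-identical, so reads could be split among them. The other 132 C/D snoRNAs had medians of 0.24 and 0.11, with 60 above and 14 below after NaCNBH3. An exception was SNORD94 on chromosome 2, with 409 and 543 against 1119 and 906. The remaining 19 genes of chromosome 15 had medians of -0.36 and -0.40, with 13 and 15 below. NAT10(-) was at -0.93 and -0.99 relative to Wildtype for the SNORD116 genes.

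Cytosolic tRNAs differed by chromosome. The 97 tRNA genes on chromosome 6, most of them in its large cluster and set apart after the values were seen, had medians of -0.37 after NaCNBH3 and -0.15 in mock, with 44 and 36 below. The 172 on other chromosomes had medians of 0.01 and 0.15, with 23 and 21 below. Of the 19 tRNA genes lower with the block in both fractions, 15 were on chromosome 6. By replicate number the chromosome 6 medians were -0.18 and -0.52 after NaCNBH3, so their size differed between replicates. In NAT10(-) relative to Wildtype the chromosome 6 medians were -0.16 and -0.03 (NaCNBH3 and mock). Those of the other chromosomes were 0.19 and 0.26.

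Among the 435 mRNAs, 9 were lower and 2 higher with the block in both fractions, beside 51 lower and 7 higher of all 1175 genes. The share of lower mRNAs was thus smaller than that over all genes. The lower ones were PKM, AMBP, TF, C3, GC, MDK, NUPR1, VIL1 and ENSG00000284779. PKM, pyruvate kinase, had 58.1 and 49.7 in NAT10-WT against 132 and 111 in Wildtype after NaCNBH3 (log2 -1.17 ± 0.20). AMBP, the precursor of alpha-1-microglobulin and bikunin, had 91.7 and 80.0 against 194 and 162, and TF, transferrin, 74.6 and 66.4 against 136 and 115. AMBP, TF, C3 and GC are secreted liver proteins. The higher ones were NTS, neurotensin, with 105 and 83.0 against 59.6 and 40.1, and ANGPTL8, a regulator of lipoprotein lipase. ANGPTL8 had 104 and 64.8 against 51.2 and 36.3. In NAT10(-) relative to Wildtype, PKM was at log2 -1.04 and -0.92 and AMBP at -0.81 and -0.60 (NaCNBH3 and mock). NTS was at 1.14 and 1.46 and ANGPTL8 at 0.63 and 0.96.

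The liver markers did not move one way. ALB, albumin, had 640 and 460 in NAT10-WT against 376 and 269 in Wildtype after NaCNBH3 (log2 0.77; limma adjusted p = 0.0502 with the block), whereas APOE, apolipoprotein E, had 155 and 108 against 304 and 244 (-1.07; adjusted p = 0.0073 with the block, and 0.0594 in mock). The 10 markers measured had medians of -0.28 and -0.29. MALAT1, a nuclear lncRNA, had 135 and 98.2 against 60.1 and 32.9 (1.37). Ribosomal protein mRNAs (77 genes) had medians of 0.28 and 0.20, with 34 and 33 above and 8 and 9 below. The 29 mRNAs of chromosome 12, where the mismatch calls were most frequent, had medians of -0.45 and -0.25, with 18 and 15 below. The 406 on other chromosomes had medians of 0.10 and 0.11. In NAT10(-) relative to Wildtype, 27 chromosome 12 mRNAs covered in all 12 libraries had medians of -0.40 and -0.25. No p53 target of 8 was deep enough to measure. Of 11 interferon genes only IFITM3 was measured (log2 -0.77 after NaCNBH3), and the 4 measured unfolded protein response genes had a median of 0.31.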

How the data were processed

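The authors deposited one table of base counts (A, C, G and T reads) per genomic position and library, limited to positions with at least 30 reads; STAR 2.7.9a, SAMtools 1.6, UMI-tools 1.1.5, cutadapt 4.2 and the build GRCh38 are those listed in the submitters' processing notes. Here reference bases, genes and 21-base windows were taken from the GRCh38 sequence and GENCODE annotation, and copies with identical 31-base surroundings were merged to the copy with most reads. Shares were tested as log2 odds (0.5 added to each count) with limma 3.58.1 in R 4.3.3, with at least 1000 reads and 10 T reads for cytidines, and at least 30 reads, 5 mismatched reads and a share over 1% for mismatches; Fisher's exact test (scipy 1.17.1, Python 3.11.15) was run within each replicate pair. Relative depth per gene (at least 20 positions, none over 15000 reads) was scaled by median ratios and tested on the log2 scale with limma. edgeR 4.0.16 was an alternative for the shares. A call is an adjusted p under 0.05 over all features.

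The labels give each replicate a batch tag that holds no more than its replicate number. On this basis replicate numbers were taken as pairs. The differences between replicates correlated between genotypes with r = 0.0276 and 0.0177 (NaCNBH3 and mock) at deep cytidines, 0.257 and 0.215 at mismatches and 0.450 and 0.252 in depth. The scripts were tested on simulated data. The libraries and gene lists were chosen with earlier results of these data known. The named items are the known ac4C and modification sites, the called positions with smallest adjusted p, the called genes with largest change and called list members; others are said to be named after their values. The labels do not say whether the 2 Wildtype replicates are separate cultures.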

Additional observations from a re-analysis of the deposited data

Results flagged for a closer look

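At C52 of RNY1 the difference between NAT10-WT and Wildtype depended on the fraction. After NaCNBH3 it had 0.136% and 0.106% C>T reads in NAT10-WT and 0.184% and 0.238% in Wildtype, whereas in mock it had 2.52% and 3.03% in NAT10-WT against 0.121% and 0.0986% in Wildtype. The difference of the differences was -5.40 ± 0.53 on the log2 odds scale (limma interaction of genotype and fraction, adjusted p = 0.00854), the only one called of 8513 cytidines. It was not called with the replicate block, with libraries centred on their medians, or in 6 of the 8 fits that left out 1 library; it was called without NAT10-WT NaCNBH3 replicate 1 and without Wildtype mock replicate 1. NAT10(-) had 0.209% and 0.0640% after NaCNBH3 and 0.122% and 3.53% in mock, so its 2 mock libraries fell on either side.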

How the results depend on the processing

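Counts of calls moved with the processing. Of the named results, 0 changed sign between the main fit and an alternative when either fit called them. Sign changes of results that neither fit called were not counted. Of the alternatives run for 47 named results, 364 stayed on the same side of the threshold, called or not, 154 lost the call and 15 gained it. For C>T at deep cytidines after NaCNBH3 (10 calls), limma gave 0 with libraries centred on their medians (316 had an unadjusted p under 0.05), 4 with counts of identical copies summed, 92 with copies not merged, 21 at a minimum of 3000 reads, 29 with weights and 11 to 32 without 1 library, and edgeR gave 6. In mock (3 calls) limma gave 5 with 5 added to each count, 5 centred, 0 with copies summed (366 at an unadjusted p under 0.05), 10 not merged, 5 at 3000 reads, 1 with no filter on T reads, 42 with weights and 0 without any 1 library, and edgeR gave 14. The interaction (1 call) gave 0 centred, 2 at 3000 reads and 0 to 1 without 1 library. Mismatches gave 16 after NaCNBH3 (28 calls) and 14 in mock (26 calls) at a minimum of 100 reads, and 0 to 17 and 0 to 21 without 1 library. Relative depth after NaCNBH3 (1 call) gave 0 scaled to ACTB, 30 over genes with 100 positions, 0 at 100 reads, 0 with the median over positions and 0 to 3 without 1 library. In mock (4 calls) it gave 11 scaled to base calls, 15 scaled to ACTB, 18 over genes with 100 positions, 0 at 100 reads and 0 to 35 without 1 library, the highest without Wildtype replicate 1. Scaling to ACTB put the median log2 ratio of all genes at 0.53 and 0.46 after NaCNBH3 and in mock, and scaling to base calls at -0.10 and -0.15. By Fisher's exact test the deep cytidines gave 251 and 297 with copies summed and 94 and 81 not merged after NaCNBH3 and in mock (23 and 27 calls), 50 to 58 and 46 to 49 with 1 replicate pair alone, and mismatches (127 and 179 calls) gave 318 to 319 and 334 to 356 with 1 pair alone. The causes were not tested, except that with 1 pair alone the rule asks for 1 replicate and not 2.

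With the replicate block, limma called 4 deep cytidines after NaCNBH3, 15 in mock, 0 in the interaction, 29 mismatches after NaCNBH3, 22 in mock, and 96 and 95 genes in depth. With the block and centring together, an alternative added after the data were seen, it called 0, 45 and 0 deep cytidines (NaCNBH3, mock and interaction). Of the cytidines called after NaCNBH3, the block kept TRA-TGC4-1 C49, MT-CO2 C270, 5′ ETS C2278 and 28S C4788, and lost 18S C1317, SNORD46, 5′ ETS C162, ITS2 C7388 and both TRN-GTT sites; it kept the 3 mock calls. Depth near 20000 reads is the ceiling of the deposited counts, so relative depth of mature rRNA is limited to positions under it, and at 30 to 100 reads a share of a few percent rests on few reads.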
